A study of Homo sapiens with 14 samples.

Results

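MM1.S cells, a human multiple myeloma line with high MAF expression, carrying an shRNA against ZBP1 were compared with the same line carrying a scrambled hairpin. Both groups had been transduced with lentivirus, so vector and transduction are common to them. One group carried the scramble control and the other the hairpin labelled anti-ZBP1 shRNA 1, here shRNA1. The comparison uses 4 of the 14 libraries of the series, 2 per group, and its members are the genes of the MM1.S count table, of which 17820 of 58051 held enough reads to be tested. The 2 MM1.S libraries of a second anti-ZBP1 hairpin, shRNA2, share the scramble controls. The 4 libraries of H929, another human myeloma line, with shRNA1 and with its own scramble serve as the same hairpin in a second line. The labels give neither the time after transduction nor the hairpin sequences, and do not say that replicates were grown separately. All p-values therefore measure only how far libraries of a group differ, which may be technical.

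ZBP1 is a sensor of Z-form nucleic acids that can start necroptosis through the kinases RIPK3 and MLKL, and its gene is induced by interferons. Myeloma cells are malignant plasma cells that depend on the transcription factor IRF4. Proliferating cells copy DNA with genes that E2F factors switch on at the start of S phase, and divide with genes that B-MYB and FOXM1 switch on later through promoter elements known as CHR and CCAAT boxes. The question addressed was which transcripts differ when ZBP1 is lowered by shRNA1. Values are CPM, counts per M reads of the TMM-scaled library size. Fold changes are log2 values of shRNA1 over scramble with their standard errors, and genes with a Benjamini-Hochberg adjusted p under 0.05 in the edgeR quasi-likelihood test are said to rise or fall.

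The targeted gene, ZBP1 (GRCh38 chromosome 20, 57603846 to 57620576, minus strand), was at 138 and 146 CPM with scramble and 22.1 and 26.2 CPM with shRNA1. The knockdown libraries lay far below both controls, with a log2 fold change of -2.55 ± 0.15, edgeR adjusted p = 3.5e-05. With shRNA2, ZBP1 was at 14.8 and 18.02 CPM, and the difference between the hairpins was -0.56 ± 0.15, edgeR adjusted p = 0.022. In H929 the same hairpin gave -1.31 ± 0.09, limma adjusted p = 8.6e-09, and the fall was larger in MM1.S, with a line difference of -1.25 ± 0.17, limma adjusted p = 2.6e-04. The authors' deposited table lists -2.54 for ZBP1 in MM1.S with shRNA1.

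Libraries held 20.5 to 28.4 M reads in genes. The cell type was checked on 13 defining plasma cell markers, all of which were detected: their summed level was 8290 and 7594 CPM with scramble and 5899 and 5665 CPM with shRNA1. These markers do not tell MM1.S from H929, where the scramble libraries of shRNA1 held 8689 and 8783 CPM, per M reads. MAF was at 1533 and 1548 CPM with scramble and 2403 and 2559 CPM with shRNA1. Markers of other lineages were low. Of 20 T and NK cell markers 9 passed the filter on low counts, of 17 myeloid markers 4, of 14 erythroid and platelet markers 4 and of 17 stromal, endothelial and epithelial markers 6. CD3D, CD3G, CD8B, NKG7, FCGR1A, ELANE, PF4, COL1A2 and KRT19 had no read in any of the 4 libraries. Summed T and NK markers went from 7.62 and 10.2 to 21.6 and 28.5 CPM, with CD7, TRBC2 and CD5 higher and none lower. Summed myeloid markers went from 3.48 and 4.94 to 21.7 and 27.9 CPM, with ITGAM and FCER1G higher. Of the rest COL1A1 rose and HBB fell, and the part of these markers in the results was not tested. In bulk RNA, fewer cells of a kind and less RNA per cell cannot be told apart.

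Scramble replicate 2 stood apart from the other libraries in a class of genes. Processed pseudogenes, copies of messenger RNAs inserted into the genome, summed to 1474 CPM in scramble replicate 1 and 5118 CPM in scramble replicate 2, against 1485 and 1619 CPM with shRNA1. Between the 2 scramble libraries 148 genes differed by over 4-fold, all of them higher in replicate 2. They comprised 123 processed pseudogenes and 19 protein-coding genes, among them CHAC1, ASS1, SLC6A9 and PCK2. No gene differed by over 4-fold between the shRNA1 libraries. Of 770 processed pseudogenes tested, 123 fell and 35 rose, and without scramble replicate 2 the counts were 33 and 29. Reads of a processed pseudogene and its parent gene cannot be told apart with certainty, so pseudogenes are not described further as single genes except where a rank names them.

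**Figure D1:**
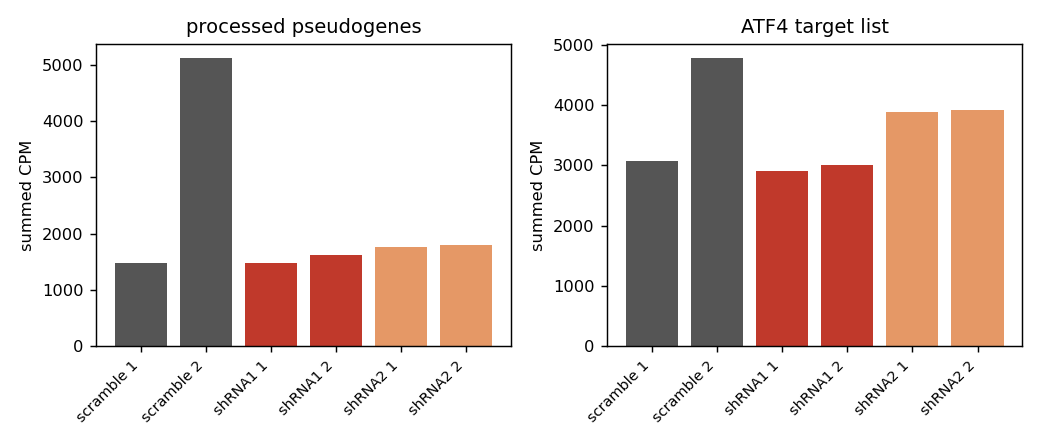
Summed level in CPM of processed pseudogenes (left) and of the list of ATF4 targets (right), 1 bar per MM1.S library. Scramble replicate 2 is the tallest bar in both, at 5118 and 4777 CPM, and scramble replicate 1 is at 1474 and 3066 CPM.

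Of the genes tested, 3173 (17.8%) were higher and 3516 (19.7%) lower with shRNA1, or 37.5% in all. Changes of at least 2-fold comprised 1671 higher genes (9.38%) and 1538 lower genes (8.63%). The median log2 fold change over all tested genes was 0.00. The genes that rose had a median of 12.5 CPM and those that fell 36.8 CPM, against 12.9 CPM over all. Genes that fell held 33.7% and 33.6% of reads in the scramble libraries and 19.2% and 19.8% in the shRNA1 libraries. Genes that rose went from 10.4% and 10.5% of reads to 20.4% and 19.8%. Protein-coding genes were called higher in 19.5% and lower in 23.9% of cases, whereas long intergenic RNAs were called higher in 19.0% and lower in 5.11%. The latter had a median of 0.966 CPM, and of all genes under 1 CPM 11.7% rose and 5.09% fell.

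Same-numbered libraries deviated together, and with the replicate number as a block 5068 genes (28.4%) were higher and 5513 (30.9%) lower. Counts of list members with the block, given below, are to be read against these shares. Those without it, from all libraries, are to be read against 17.8% and 19.7%. With a library left out fewer genes were called each way over all. A drop in a list count in such a fit therefore does not by itself set the list apart. Without shRNA1 replicate 1 the number of lower genes was 2092. Without scramble replicate 2 it was 3071, or 16.3% of the genes then tested. The authors' deposited table calls 3670 of the genes tested here higher and 4487 lower, and includes 2735 of the 3173 and 3306 of the 3516.

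**Figure D2:**
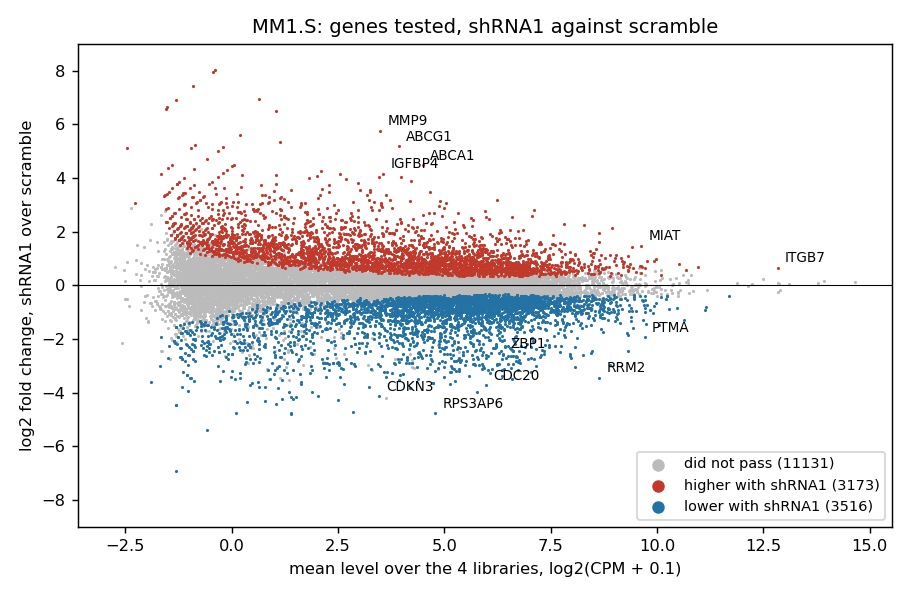
Each point is a tested gene: mean level over the 4 libraries, log2(CPM + 0.1), against the log2 fold change of shRNA1 over scramble. Red points (3173) rose and blue points (3516) fell. The named highest genes lie at low to middle levels, and RRM2 and PTMA lie among the abundant genes that fell.

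Among genes with at least 5 CPM the highest fold changes were those of MMP9, ABCG1 and ABCA1. MMP9, a secreted gelatinase, was at 0.469 and 0.330 CPM with scramble and 20.1 and 23.6 CPM with shRNA1 (5.76 ± 0.25, edgeR adjusted p = 3.4e-05). With shRNA2 it was at 0.463 and 0.522 CPM, close to scramble. ABCG1, a pump that exports cholesterol to lipoproteins, went from 0.664 and 0.952 to 31.4 and 27.9 CPM (5.18 ± 0.24, edgeR adjusted p = 3.4e-05). ABCA1, its partner in cholesterol export, was at 2.27 and 1.57 CPM with scramble and 50.1 and 36.1 CPM with shRNA1 (4.49 ± 0.26, edgeR adjusted p = 3.5e-05). Neither overlapped between groups, as was so for 34.5% of all genes tested in this direction. These 2 pumps were higher with shRNA2 as well, by 3.19 and 1.28, and the hairpins differed for both (ABCG1 -1.99 ± 0.19, edgeR adjusted p = 3.1e-04, and ABCA1 -3.21 ± 0.24, edgeR adjusted p = 1.4e-04).

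Next in order were IGFBP4, which binds insulin-like growth factors (4.16), RUNDC3A (4.15), ITGAM, the alpha chain of the integrin CD11b/CD18 (4.05), LTB, the membrane-bound cytokine lymphotoxin beta (4.03), TSPAN18 (3.96), CECR2 (3.89), ZNF467 (3.82), the T and NK cell antigen CD7 (3.56) and the semaphorin receptor NRP2 (3.55). LTB was at 1.72 and 1.90 CPM with scramble and 29.9 and 29.6 CPM with shRNA1, and 2.52 and 2.81 CPM with shRNA2. ITGAM was at 0.781 and 1.68 CPM with scramble and 18.2 and 22.9 CPM with shRNA1 and CD7 at 1.05 and 1.43 CPM with scramble and 12.4 and 17.04 CPM with shRNA1. Both are markers of other blood lineages, and TRBC2, CD5 and FCER1G of the same marker lists rose as well. The T cell receptor subunit CD3E was at 2.85 and 3.77 CPM with scramble and 3.55 and 4.35 CPM with shRNA1 and the monocyte marker CD14 at 0.117 and 0.439 CPM with scramble and 0.355 and 0.526 CPM with shRNA1, and neither was called. IGFBP4 moved in opposite directions with the hairpins: it was at 1.05 and 1.43 CPM with scramble and 22.7 and 21.9 CPM with shRNA1 and at 0.295 and 0.281 CPM with shRNA2 (difference -6.25 ± 0.25, edgeR adjusted p = 3.6e-05).

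Some genes were read almost solely in 1 group. NKAIN4, an interactor of the sodium pump, had 0 and 0 reads with scramble and 31 and 30 reads with shRNA1, at least 11.7-fold higher against a floor of 3 reads per library. FOXS1, a forkhead factor, had 0 and 0 reads against 28 and 30, at least 11.2-fold higher. HCN4, a pacemaker channel, had 0 and 0 against 21 and 19 reads, at least 7.65-fold higher. PDK4, a kinase that shuts pyruvate dehydrogenase when fat is burned, had 1 and 0 reads with scramble and 99 and 40 with shRNA1. In the other direction CADPS, a factor of dense-core vesicle release, had 55 and 44 reads with scramble and 2 and 1 with shRNA1. These are low counts, and only genes that passed the edgeR test were considered here.

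In absolute level the rises were led by ITGB7, MAF, PIM2, MIAT, SELPLG and PBXIP1. MIAT, a long noncoding RNA, went from 446 and 395 to 1209 and 1125 CPM (1.47 ± 0.12, edgeR adjusted p = 1.3e-04), and SELPLG, the selectin ligand PSGL-1, from 614 and 729 to 1234 and 1451 CPM (1.00 ± 0.14, edgeR adjusted p = 0.0013). ITGB7, a MAF-driven integrin chain of myeloma, was at 5038 and 6319 CPM with scramble and 7878 and 10115 CPM with shRNA1 (0.66 ± 0.18, edgeR adjusted p = 0.022). Its call was lost without scramble replicate 1 (0.072) or without shRNA1 replicate 2 (0.087, edgeR adjusted p). The falls were led by ACTB, HSPA8, HSP90B1, GAPDH, PTMA and IGLV2-14. PTMA, a chromatin-associated acidic protein of dividing cells, went from 1347 and 1308 to 331 and 366 CPM (-1.93 ± 0.13, edgeR adjusted p = 6.5e-05), and GAPDH, the glycolytic enzyme, from 1592 and 1512 to 521 and 605 CPM (-1.46 ± 0.13, edgeR adjusted p = 1.6e-04).

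Among the lowest fold changes 4 were cell division genes and 7 were processed pseudogenes. CDKN3, a phosphatase of CDK1 and CDK2, was at 22.4 and 19.3 CPM with scramble and 0.906 and 1.48 CPM with shRNA1 (-4.14 ± 0.25, edgeR adjusted p = 3.9e-05). CDC20, KIF20A and DLGAP5, genes of mitosis, were the other division genes. The pseudogenes were led by RPS3AP6, with 137 and 2762 reads with scramble and 51 and 39 reads with shRNA1, and 5 of the 7 lost their call without scramble replicate 2: SRP9P1, RPL14P1, RPL23AP42, RPL18AP3 and RPL10P16.

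Genes that copy DNA fell as a group, from licensing of origins to the moving fork. Of 16 genes that load the helicase onto origins, 13 fell and 0 rose, with a median log2 fold change of -2.37. All 14 genes that fire the loaded helicase fell (median -2.36), as did 29 of 31 fork genes (median -2.09). Over all genes 19.7% fell and the median was 0.00. These counts changed by at most 1 gene when any 1 of the 4 libraries was left out. CDT1, the licensing factor degraded in S phase, was at 55.3 and 89.3 CPM with scramble and 6.86 and 13.4 CPM with shRNA1 (-2.84 ± 0.39, edgeR adjusted p = 0.0011). ORC1, a subunit of the origin recognition complex, went from 58.005 and 55.5 to 6.58 and 9.28 CPM (-2.84 ± 0.18, edgeR adjusted p = 4.7e-05), and the helicase subunit MCM2 from 342 and 379 to 50.2 and 78.96 CPM (-2.48 ± 0.24, edgeR adjusted p = 2.2e-04). MCM10, which activates the helicase, was at 69.5 and 58.5 CPM with scramble and 5.87 and 7.85 CPM with shRNA1 (-3.23 ± 0.20, edgeR adjusted p = 3.8e-05).

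The sliding clamp PCNA was at 289 and 263 CPM with scramble and 64.1 and 69.7 CPM with shRNA1 (-2.05 ± 0.12, edgeR adjusted p = 3.5e-05). At 132 and 137 CPM it fell less with shRNA2, by 1.01 ± 0.12, edgeR adjusted p = 6.9e-04 between the hairpins. The flap nuclease FEN1 went from 187 and 190.1 to 21.7 and 33.2 CPM (-2.78 ± 0.20, edgeR adjusted p = 7.6e-05). POLD4, the small subunit of polymerase delta, was the 1 fork gene that rose, from 9.45 and 11.8 to 18.5 and 20.5 CPM (0.88 ± 0.16, edgeR adjusted p = 0.0042). With shRNA2 16 of the 31 fork genes were higher than with shRNA1 and 1 lower, where 16.4% of all genes were higher and 20.4% lower in that contrast. The list's median was -1.43 with shRNA2.

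Genes of deoxynucleotide supply mostly fell. Of 17 genes 12 fell and 2 rose. RRM2, the S phase subunit of ribonucleotide reductase, was at 784 and 679 CPM with scramble and 58.1 and 76.8 CPM with shRNA1 (-3.44 ± 0.17, edgeR adjusted p = 3.4e-05), low in both libraries. TK1, the cytosolic thymidine kinase of S phase, went from 159 and 193 to 23.7 and 33.5 CPM (-2.63 ± 0.22, edgeR adjusted p = 1.3e-04). The 2 that rose were the forms used outside S phase. RRM2B, the p53-inducible subunit of the reductase, was at 18.6 and 17.5 CPM with scramble and 45.7 and 37.4 CPM with shRNA1 (1.21 ± 0.16, edgeR adjusted p = 8.4e-04), and TK2, the mitochondrial thymidine kinase, at 24.5 and 28.6 CPM with scramble and 60.01 and 71.3 CPM with shRNA1 (1.31 ± 0.15, edgeR adjusted p = 4.6e-04).

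Repair by homologous recombination fell, with 32 of 38 genes lower and 1 higher (median -1.67). The helicase BLM was at 69.6 and 57.6 CPM with scramble and 5.83 and 7.70 CPM with shRNA1 (-3.24 ± 0.19, edgeR adjusted p = 3.5e-05). End joining and excision repair were mixed, with 15 of 31 lower and 4 higher (2 higher without scramble replicate 2). The glycosylase NEIL3 fell (-3.43), as did UNG, which removes uracil from copied DNA (-3.00), while LIG4, the ligase of end joining, was at 21.1 and 16.4 CPM with scramble and 36.1 and 31.1 CPM with shRNA1 and rose (0.84 ± 0.20, edgeR adjusted p = 0.012, and 0.051 without scramble replicate 2). Mismatch repair genes fell in 6 of 7 cases, 3 without shRNA1 replicate 2.

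Genes of mitosis fell with those of replication. All 33 kinesin, spindle and cytokinesis genes fell (median -2.57), each by at least 2-fold. Cyclin B, CDK1, Aurora and Polo kinases and their partners fell in 27 of 29 cases (median -2.69), and centromere and kinetochore genes in 32 of 34 (median -2.02). Cyclin B1, CCNB1, was at 193 and 162 CPM with scramble and 14.1 and 17.8 CPM with shRNA1 (-3.48 ± 0.17, edgeR adjusted p = 3.4e-05). PLK1, the Polo kinase that drives entry into mitosis, was at 186 and 196 CPM with scramble and 18.7 and 24.3 CPM with shRNA1 (-3.15 ± 0.18, edgeR adjusted p = 3.5e-05). CENPA, the histone variant that marks centromeres, was at 31.99 and 27.2 CPM with scramble and 2.72 and 3.25 CPM with shRNA1 (-3.31 ± 0.25, edgeR adjusted p = 8.0e-05).

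CDC20, which activates the anaphase-promoting complex, was at 119.5 and 116 CPM with scramble and 6.70 and 11.2 CPM with shRNA1 (-3.72 ± 0.23, edgeR adjusted p = 4.2e-05). It fell furthest among checkpoint and anaphase-promoting genes, of which 21 of 29 fell and 2 rose. KIF20A, a kinesin of the cleavage furrow, went from 69.9 and 59.8 to 4.61 and 5.65 CPM (-3.66 ± 0.17, edgeR adjusted p = 3.4e-05) and DLGAP5, a spindle stabiliser, from 83.7 and 56.8 to 6.90 and 4.88 CPM (-3.57 ± 0.25, edgeR adjusted p = 6.6e-05). PLK3, a stress-responsive Polo kinase, rose from 9.65 and 10.7 to 15.998 and 19.2 CPM (0.79 ± 0.18, edgeR adjusted p = 0.0099), against the rest of its list. Condensin, cohesin and their regulators fell in 22 of 27 cases, led by CDCA5, the cohesion protector sororin (-3.24). Among tubulins 11 of 24 fell and 3 rose, with TUBA1B at 479 and 479 CPM with scramble and 45.4 and 70.3 CPM with shRNA1 (-3.05 ± 0.23, edgeR adjusted p = 9.1e-05), and the fall count was 7 without shRNA1 replicate 1.

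**Figure D3:**
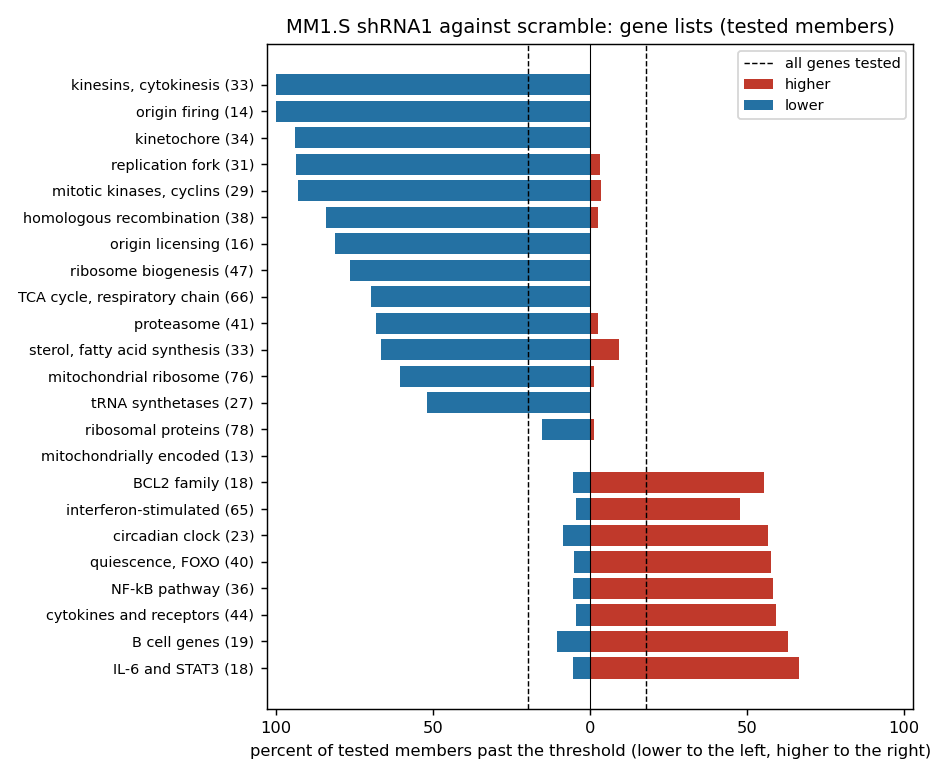
Percent of the tested members of 23 lists that fell (blue, left) or rose (red, right) with shRNA1 in MM1.S, with the number tested in parentheses and dashed lines at the shares over all genes tested, 19.7% lower and 17.8% higher. The 3 replication lists reach 81.2% to 100% lower, and none of the 13 mitochondrially encoded protein genes passed.

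Promoters of several of these genes are shown because letters of a CHR, a CCAAT box or an E2F site are visible in them. Each is the 120 bases before the RefSeq start (GRCh38.p14), written 5' to 3' on the gene's strand, with capitals for matches on either strand to the CHR (TTTGAA), the CCAAT box (CCAAT) or an E2F site (TTCCCGCC).
CDC20, chr1:43358861-43358980, plus strand: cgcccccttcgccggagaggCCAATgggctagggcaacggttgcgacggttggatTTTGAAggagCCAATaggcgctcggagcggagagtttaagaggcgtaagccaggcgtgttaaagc
PLK1, chr16:23678769-23678888, plus strand: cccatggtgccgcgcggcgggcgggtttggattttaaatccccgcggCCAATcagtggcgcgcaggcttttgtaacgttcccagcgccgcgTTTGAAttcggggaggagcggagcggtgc
CENPA, chr2:26785936-26786055, plus strand: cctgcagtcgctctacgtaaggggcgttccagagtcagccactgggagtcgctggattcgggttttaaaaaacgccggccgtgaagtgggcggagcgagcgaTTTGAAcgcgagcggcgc
CCNB1, chr5:69167030-69167149, plus strand: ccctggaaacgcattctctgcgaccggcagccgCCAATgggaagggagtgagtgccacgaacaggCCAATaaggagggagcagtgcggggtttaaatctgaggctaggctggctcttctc
MCM10, chr10:13161438-13161557, plus strand: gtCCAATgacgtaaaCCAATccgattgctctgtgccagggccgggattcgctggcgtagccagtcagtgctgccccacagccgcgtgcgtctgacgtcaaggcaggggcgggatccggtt
CDT1, chr16:88803669-88803788, plus strand: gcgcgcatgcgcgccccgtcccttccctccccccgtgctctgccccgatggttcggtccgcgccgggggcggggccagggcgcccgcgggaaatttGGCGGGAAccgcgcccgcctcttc
The 3 mitotic genes CDC20, PLK1 and CENPA hold a CHR, PLK1 also holds 1 CCAAT box, and CDC20, CCNB1 and MCM10 hold 2 each. CDT1 holds an E2F site on the other strand, GGCGGGAA.

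In the 250 bases before the start, with both strands searched, 27 of 69 mitosis promoters (39.1%) and 0 of 37 replication promoters held TTTGAA, against 14.03% of all 22114 promoters with a single start and 8.39% of the 7664 tested. CCAAT occurred in 47 of 69 mitosis and 22 of 37 replication promoters, against 33.4% of all and 36.3% of those tested. Among all genes that fell by 2-fold or more CCAAT was in 51.1% of promoters, and among those that rose by 2-fold or more in 32.4%. The E2F letters TTCCCGCC were in 7.55% of the former and 2.19% of the latter (2.71% of all and 4.55% of those tested), and the second form TTTGGCGC in 3.57% of the former and none of the latter (0.552% of all and 0.979% of those tested). The ETS letters ACTTCCGG were in 7.97% of the former, near the 7.75% of all tested promoters, and in 1.25% of the latter. A match is a description of letters, and no motif was tested against another.

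Regulators of these genes moved with them. Of 22 E2F, RB and MuvB genes 16 fell and 2 rose. E2F1 was at 137 and 179.6 CPM with scramble and 21.9 and 39.05 CPM with shRNA1 (-2.38 ± 0.30, edgeR adjusted p = 7.4e-04), and FOXM1 (-2.72) and E2F8, a repressor of the family (-3.08), fell as well. The pocket proteins were not called: RB1 was at 43.98 and 37.3 CPM with scramble and 42.05 and 32.8 CPM with shRNA1 and RBL2 at 130.3 and 108 CPM with scramble and 146 and 126 CPM with shRNA1 (edgeR adjusted p for RBL2 0.011 with the replicate block). E2F5, which pairs with pocket proteins in resting cells, rose from 10.2 and 7.76 to 29.9 and 19.5 CPM (1.46 ± 0.24, edgeR adjusted p = 0.0025).

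Among 17 G1 cyclins, CDKs and their inhibitors 8 fell and 3 rose. CCNE1, cyclin E1, went from 38.6 and 39.6 to 10.05 and 10.5 CPM (-1.93 ± 0.14, edgeR adjusted p = 7.7e-05) and CDK2 from 58.7 and 51.6 to 13.1 and 16.2 CPM (-1.92 ± 0.16, edgeR adjusted p = 1.1e-04). CCND2, the cyclin D of MAF myeloma, was at 981 and 929.4 CPM with scramble and 845 and 803 CPM with shRNA1 and was not called (-0.21 ± 0.11, edgeR adjusted p = 0.175, and 0.021 with the block), while with shRNA2 it was at 408 and 446 CPM, lower than with shRNA1 (-0.95 ± 0.11, edgeR adjusted p = 7.5e-04). Of the inhibitors, CDKN1C (p57) was at 4.77 and 7.84 CPM with scramble and 23.5 and 31.4 CPM with shRNA1 (2.12 ± 0.31, edgeR adjusted p = 0.0016) and CDKN1B (p27) at 220.03 and 210.03 CPM with scramble and 325 and 305 CPM with shRNA1 (0.55 ± 0.11, edgeR adjusted p = 0.0064). CDKN1A (p21) was at 107 and 145 CPM with scramble and 163 and 196 CPM with shRNA1 and missed the threshold (0.51 ± 0.18, edgeR adjusted p = 0.053), which it passed with median-of-ratios scaling (0.049), DESeq2 (0.020), the replicate block (4.0e-05), and without scramble replicate 2 (0.014) or shRNA1 replicate 1 (0.042). CDKN1C was at 6.18 and 10.3 CPM with shRNA2, and the hairpins differed (-1.73 ± 0.31, edgeR adjusted p = 0.004).

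Chromatin genes that act behind the fork fell in 29 of 37 cases and 4 rose (median -1.40). UHRF1, which brings the maintenance DNA methyltransferase to copied DNA, was at 109 and 127 CPM with scramble and 10.01 and 16.8 CPM with shRNA1 (-3.14 ± 0.28, edgeR adjusted p = 1.6e-04). DNMT3A, a de novo DNA methyltransferase, rose from 28.8 and 30.4 to 82.6 and 87.4 CPM (1.52 ± 0.12, edgeR adjusted p = 9.5e-05), as did TET2, which oxidises methylcytosine, from 28.8 and 22.7 to 87.8 and 69.3 CPM (1.61 ± 0.18, edgeR adjusted p = 4.2e-04). Histone lysine demethylases rose in 7 of 19 cases and fell in 2, with 13 higher under the replicate block. KDM5B, an H3K4 demethylase, was at 7.23 and 8.06 CPM with scramble and 60.6 and 51.5 CPM with shRNA1 (2.87 ± 0.15, edgeR adjusted p = 3.4e-05) and at 61.9 and 60.003 CPM with shRNA2. In H929 KDM5B was not called with shRNA1 (-0.01 ± 0.08, limma adjusted p = 0.923), and the lines differed (2.87 ± 0.14, limma adjusted p = 3.6e-07).

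Genes of resting lymphocytes and FOXO targets rose in 23 of 40 cases and fell in 2 (median 0.65, against 0.00 and 17.8% higher over all genes). PIK3IP1, which restrains PI3 kinase, was at 35.3 and 34.3 CPM with scramble and 251 and 231 CPM with shRNA1 (2.79 ± 0.12, edgeR adjusted p = 3.4e-05). CCNG2, an unconventional cyclin of arrested cells, went from 35.97 and 28.2 to 72.2 and 59.2 CPM (1.04 ± 0.17, edgeR adjusted p = 0.0026), and the ATG8 family member GABARAPL1 from 15.5 and 14.1 to 86.7 and 81.3 CPM (2.503 ± 0.13, edgeR adjusted p = 3.5e-05). FOXO3 itself was at 685 and 641 CPM with scramble and 929.5 and 912 CPM with shRNA1 (0.47 ± 0.11, edgeR adjusted p = 0.012, and 0.060 without shRNA1 replicate 1). KLF2, a factor of lymphocyte resting and trafficking, fell from 40.2 and 62.1 to 9.22 and 16.03 CPM (-2.02 ± 0.33, edgeR adjusted p = 0.0023).

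PIK3IP1 was higher with shRNA1 than with shRNA2, where it was at 64.2 and 61.6 CPM (-1.94 ± 0.12, edgeR adjusted p = 7.0e-05). Of the list, 18 members were lower and 3 higher with shRNA2 than with shRNA1. With shRNA1 in H929 30 members rose and 5 fell, where 25.7% of all H929 genes tested rose and 27.7% fell. Autophagy genes rose in 14 of 42 cases and fell in 2 (25 higher with the replicate block), led by GABARAPL1 and by FYCO1, a transport adaptor of autophagosomes (2.24). In MM1.S 17.8% of all genes tested rose and 19.7% fell, or 28.4% and 30.9% with the block. Lysosomal genes rose in 15 of 56 and fell in 6 (30 and 11 with the block, and 3 lower without shRNA1 replicate 1), among them the proteases CTSZ (2.55) and CTSL (2.03).

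Circadian clock genes rose in 13 of 23 cases and fell in 2 (median 0.62), where 17.8% of all genes rose and 19.7% fell. NR1D2, TEF and DBP were among those that rose furthest. NR1D2 was at 42.1 and 41.6 CPM with scramble and 159 and 121 CPM with shRNA1 (1.74 ± 0.16, edgeR adjusted p = 1.7e-04). TEF was at 9.14 and 8.35 CPM with scramble and 28.1 and 28.95 CPM with shRNA1 (1.71 ± 0.18, edgeR adjusted p = 3.7e-04). DBP went from 8.94 and 10.5 to 22.3 and 28.8 CPM (1.39 ± 0.19, edgeR adjusted p = 0.0011). PER2, a core repressor of the clock, fell from 34.9 and 38.3 to 14.3 and 18.4 CPM (-1.16 ± 0.16, edgeR adjusted p = 0.0013), as did NFIL3, the competitor of TEF and DBP for their site (-1.11). TEF and DBP rose while their antagonist fell. In H929 PER2 also fell (-1.93 ± 0.14, limma adjusted p = 9.6e-09).

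Glucocorticoid response genes rose in 13 of 25 cases and fell in 5 (3 lower without scramble replicate 1 or shRNA1 replicate 2). The receptor NR3C1 was at 192 and 161 CPM with scramble and 162 and 129 CPM with shRNA1 and TSC22D3 (GILZ), its classical target, at 41.3 and 60.8 CPM with scramble and 47.6 and 54.2 CPM with shRNA1, and neither was called (NR3C1 0.0017 with the block). FKBP5, another direct target, fell from 98.3 and 86.3 to 55.99 and 53.3 CPM (-0.76 ± 0.12, edgeR adjusted p = 0.0023). The share of the list that fell, 20%, was near the 19.7% of all genes tested, of which 17.8% rose. The members that rose furthest were PIK3IP1, RGS1, a brake on chemokine signalling (2.13), SOCS1 (1.42) and NFKBIA, the NF-kB inhibitor (1.28), which other pathways also induce.

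Cytokines of the interleukin and TNF families and their receptors rose in 26 of 44 cases and fell in 2 (median 0.87). Over all genes tested 17.8% rose and 19.7% fell. LTB led the ligands. TNFSF10, the death ligand TRAIL, was at 9.02 and 6.22 CPM with scramble and 28.96 and 20.5 CPM with shRNA1 (1.70 ± 0.27, edgeR adjusted p = 0.002). Among receptors, IL21R went from 32.8 and 39.7 to 106 and 121 CPM (1.65 ± 0.16, edgeR adjusted p = 2.6e-04), IL27RA from 12.8 and 16.95 to 51.1 and 63.7 CPM (1.95 ± 0.19, edgeR adjusted p = 2.4e-04) and IL10RA from 89.3 and 100.04 to 227 and 238 CPM (1.30 ± 0.14, edgeR adjusted p = 3.3e-04). With shRNA2 the list's median was -0.28, and 27 members were lower and 0 higher than with shRNA1. IL27RA was at 3.03 and 3.53 CPM with shRNA2 (-4.13 ± 0.22, edgeR adjusted p = 6.0e-05).

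Genes around IL-6 and STAT3, the main growth signal of plasma cells, rose in 12 of 18 cases and fell in 1 (median 0.78). The receptor chain IL6R was at 809 and 803 CPM with scramble and 675 and 679 CPM with shRNA1 and was not called (-0.25 ± 0.12, edgeR adjusted p = 0.123, and 0.0077 with the block). The shared chain IL6ST (gp130) went from 480.1 and 383 to 861 and 629 CPM (0.79 ± 0.19, edgeR adjusted p = 0.014, and 0.069 without shRNA1 replicate 1) and STAT3 from 67.6 and 66.9 to 104.5 and 106 CPM (0.65 ± 0.11, edgeR adjusted p = 0.0029). Both thus rose by less than 2-fold. Of the STAT3-induced kinases, PIM1 was at 244 and 249 CPM with scramble and 446 and 485 CPM with shRNA1 (0.92 ± 0.14, edgeR adjusted p = 0.0019) and PIM2 at 1068 and 1103 CPM with scramble and 1780.3 and 1949.9 CPM with shRNA1 (0.78 ± 0.12, edgeR adjusted p = 0.0019). PIM1 went the other way with shRNA2, to 50.2 and 64.1 CPM (difference -3.03 ± 0.15, edgeR adjusted p = 5.4e-05).

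NF-kB subunits and regulators rose in 21 of 36 cases and fell in 2 (median 0.60), against 17.8% and 19.7% of all genes tested. The subunit REL was at 2.15 and 2.93 CPM with scramble and 13.8 and 12.4 CPM with shRNA1 (2.36 ± 0.23, edgeR adjusted p = 2.2e-04), RELB at 66.6 and 88.4 CPM with scramble and 109.7 and 138 CPM with shRNA1 (0.67 ± 0.18, edgeR adjusted p = 0.023, and 0.097 or 0.082 without scramble replicate 1 or shRNA1 replicate 2) and NFKB2 at 315 and 372 CPM with scramble and 506 and 562 CPM with shRNA1 (0.64 ± 0.14, edgeR adjusted p = 0.0081). NFKB1 was not called, at 114 and 114 CPM with scramble and 106 and 104 CPM with shRNA1 (-0.12 ± 0.11, edgeR adjusted p = 0.404). Among genes that NF-kB induces, the adaptor TRAF1 went from 8.09 and 9.23 to 40.8 and 45.7 CPM (2.32 ± 0.15, edgeR adjusted p = 4.7e-05) and BIRC3 (cIAP2) from 187 and 138 to 739.6 and 531 CPM (1.97 ± 0.23, edgeR adjusted p = 6.0e-04). TNFRSF17 (BCMA), the receptor that feeds the pathway in plasma cells, fell from 271 and 245 to 104.7 and 90.97 CPM (-1.40 ± 0.13, edgeR adjusted p = 1.8e-04).

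Chemokines and their receptors rose in 9 of 20 cases and fell in 2, where 17.8% of all genes tested rose and 19.7% fell. CXCL10, a chemokine for T cells that interferons induce, was at 19.02 and 10.9 CPM with scramble and 163 and 108 CPM with shRNA1 (3.18 ± 0.32, edgeR adjusted p = 2.8e-04), and at 18.2 and 12.5 CPM with shRNA2, close to scramble. CCL4 was at 5.62 and 9.81 CPM with scramble and 21.1 and 19.7 CPM with shRNA1 (1.40 ± 0.25, edgeR adjusted p = 0.004), and the hairpins differed (-3.01 ± 0.28, edgeR adjusted p = 2.8e-04). Adhesion receptors rose in 14 of 37 cases and fell in 3 (9 higher without shRNA1 replicate 2). ICAM1, the ligand of leukocyte integrins, went from 29.1 and 38.4 to 112 and 115 CPM (1.75 ± 0.15, edgeR adjusted p = 1.5e-04). Relative to shRNA1, 25 adhesion genes were lower and 1 higher with shRNA2, and 15 chemokine genes were lower and 0 higher.

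Interferon-stimulated genes rose in 31 of 65 cases and fell in 3 (median 0.52; 44 and 10 with the replicate block). Their summed level was 3029 and 2903 CPM with scramble and 3549 and 3415 CPM with shRNA1. XAF1, which counters inhibitors of apoptosis, was at 1.02 and 1.79 CPM with scramble and 10.2 and 8.37 CPM with shRNA1 (2.72 ± 0.28, edgeR adjusted p = 2.9e-04). The antiviral GTPase MX1 was at 25.4 and 26.3 CPM with scramble and 89.9 and 90.9 CPM with shRNA1 (1.81 ± 0.12, edgeR adjusted p = 4.5e-05) and MX2 at 2.42 and 3.30 CPM with scramble and 12.1 and 11.7 CPM with shRNA1 (2.06 ± 0.20, edgeR adjusted p = 2.6e-04). GBP4, a guanylate-binding protein of the interferon gamma response, went from 8.63 and 8.93 to 58.95 and 47.4 CPM (2.60 ± 0.16, edgeR adjusted p = 4.0e-05). The factor IRF7 was at 23.6 and 35.2 CPM with scramble and 56.1 and 70.01 CPM with shRNA1 (1.10 ± 0.21, edgeR adjusted p = 0.005).

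Members of the list differed. IFIT1, a sensor of foreign RNA caps, was at 2.85 and 2.56 CPM with scramble and 1.93 and 2.54 CPM with shRNA1 and was not called (-0.28 ± 0.24, edgeR adjusted p = 0.389), nor was OAS1 (0.29 ± 0.12, edgeR adjusted p = 0.092, and 0.0044 with the block). ISG15 was at 2.97 and 3.59 CPM with scramble and 4.93 and 4.74 CPM with shRNA1 (0.56 ± 0.20, edgeR adjusted p = 0.055), with an adjusted p of 0.013 under the replicate block. HERC5, the ligase for ISG15, fell from 62.8 and 54.999 to 38.1 and 31.7 CPM (-0.75 ± 0.14, edgeR adjusted p = 0.0051). DDX60, an RNA helicase, was at 0.664 and 0.659 CPM with scramble and 4.53 and 3.16 CPM with shRNA1 (2.54 ± 0.29, edgeR adjusted p = 5.1e-04) and at 24.1 and 17.9 CPM with shRNA2, higher again (2.44 ± 0.24, edgeR adjusted p = 3.1e-04). MX2 was lower with shRNA2 than with shRNA1, at 3.32 and 3.45 CPM (-1.81 ± 0.20, edgeR adjusted p = 5.5e-04).

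From the list 3 promoters are shown because the interferon response element is visible in them, with the same conventions and capitals for GAAA, 2 bases of any kind and GAAA, on either strand.
DDX60, chr4:168318753-168318872, minus strand: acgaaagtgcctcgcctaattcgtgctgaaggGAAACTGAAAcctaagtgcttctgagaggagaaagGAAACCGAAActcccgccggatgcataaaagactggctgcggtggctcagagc
IFI44L, chr1:78620328-78620447, plus strand: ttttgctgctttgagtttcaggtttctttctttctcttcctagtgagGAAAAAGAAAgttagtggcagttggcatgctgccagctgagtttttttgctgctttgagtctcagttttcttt
PARP12, chr7:140062952-140063071, minus strand: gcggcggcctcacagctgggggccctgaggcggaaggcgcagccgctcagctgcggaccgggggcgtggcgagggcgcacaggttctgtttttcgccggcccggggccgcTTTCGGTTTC
DDX60 holds 2 matches, IFI44L 1 and PARP12 1 on the other strand. In the 250-base window the letters occurred in 22 of 37 promoters of the list (59.5%), against 3.21% of all promoters, 3.83% of those of all genes that rose and 2.03% of those of genes that fell. IFI44L was at 0.234 and 0.146 CPM with scramble and 2.09 and 1.20 CPM with shRNA1 (3.10 ± 0.47, edgeR adjusted p = 0.0018) and PARP12 at 14.1 and 13.8 CPM with scramble and 43.2 and 42.1 CPM with shRNA1 (1.61 ± 0.13, edgeR adjusted p = 1.1e-04).

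Against its own scramble libraries, the same hairpin moved this list the other way in H929. There 4 members rose and 39 fell, where 25.7% of all H929 genes tested rose and 27.7% fell. The list's median was -0.75 on the log2(value + 1) scale. The list summed to 6703 and 8301 CPM, per M reads, in these controls and to 3986 and 4264 CPM with shRNA1. In the H929 scramble libraries of shRNA2 it summed to 4293 and 3481 CPM. The cause of this difference between controls was not tested. The line difference was positive for 42 members and negative for 1, where 10.4% of the genes tested for it were positive and 11% negative. XAF1 had -2.66 ± 0.22, limma adjusted p = 4.3e-08 in H929 (line difference 5.40 ± 0.41, limma adjusted p = 6.1e-06), and MX1 had -2.21 ± 0.17, limma adjusted p = 2.3e-08 (4.01 ± 0.26, limma adjusted p = 2.0e-06). MX2 had -2.74 ± 0.27, limma adjusted p = 3.1e-07 (4.80 ± 0.40, limma adjusted p = 9.4e-06).

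Nuclear genes of the mitochondrion fell by modest amounts. Of 66 genes of the TCA cycle and respiratory chain 46 fell and 0 rose (median -0.63), 29 without shRNA1 replicate 1. CS, citrate synthase, was at 259 and 238 CPM with scramble and 94.1 and 97.4 CPM with shRNA1 (-1.37 ± 0.12, edgeR adjusted p = 1.4e-04), and MDH1, malate dehydrogenase, at 219 and 172 CPM with scramble and 84.6 and 78.1 CPM with shRNA1 (-1.27 ± 0.15, edgeR adjusted p = 5.8e-04). DLD, the dehydrogenase subunit shared by pyruvate and oxoglutarate complexes, was at 146 and 117 CPM with scramble and 60.4 and 56.1 CPM with shRNA1 (-1.17 ± 0.15, edgeR adjusted p = 7.4e-04). Mitochondrial ribosomal proteins fell in 46 of 76 cases and 1 rose (median -0.59), with 28 lower without shRNA1 replicate 1 and 30 without replicate 2. MRPL34 was at 61.8 and 75.8 CPM with scramble and 19.5 and 26.2 CPM with shRNA1 (-1.59 ± 0.21, edgeR adjusted p = 8.5e-04).

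The 13 protein genes of the mitochondrial genome did not follow. None passed the edgeR test (median 0.08), 1 was higher under the replicate block and none by DESeq2. MT-CO1, cytochrome oxidase subunit 1, was at 25928 and 23505 CPM with scramble and 27256 and 27353 CPM with shRNA1. Mitochondrial reads made up 10.2% and 9.87% of the scramble libraries and 11.6% and 11.7% of the shRNA1 libraries. In H929 shRNA1 lowered 10 of the 13, where 27.7% of all genes tested in that line fell.

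Nuclear mitochondrial genes separated the hairpins. Their medians with shRNA2 were 0.02 for the TCA cycle and respiratory chain and 0.00 for the mitochondrial ribosome. Relative to shRNA1, 45 of the 66 and 40 of the 76 were higher with shRNA2, and 0 and 1 lower. In H929 shRNA1 lowered 55 of the former, 60 of the latter and raised 0 and 2. Of all genes tested in H929 27.7% fell and 25.7% rose. DLD was at 161 and 141 CPM with shRNA2 (1.38 ± 0.15, edgeR adjusted p = 4.7e-04).

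Genes of protein synthesis fell as well. Ribosome biogenesis genes fell in 36 of 47 cases and none rose (median -0.66), led by TCOF1, the treacle protein of RNA polymerase I, from 206 and 222 to 48.7 and 61.1 CPM (-1.96 ± 0.16, edgeR adjusted p = 1.0e-04). Aminoacyl-tRNA synthetases fell in 14 of 27 (23 with the block, 9 without shRNA1 replicate 1). Initiation and elongation factors fell in 23 of 46 and rose in 2 (35 lower with the block, 14 and 12 without shRNA1 replicate 1 or 2). With shRNA2 20 of 27 synthetases and 22 of 46 factors were higher than with shRNA1, and 0 and 1 lower.

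Cytosolic ribosomal proteins mostly missed the threshold: of 78, 12 fell and 1 rose (median -0.24). The share that fell, 15.4%, was below the 19.7% of all genes tested, a share that was 30.9% with the block. These genes are abundant, with a summed 53624 and 51214 CPM with scramble, and of all genes over 100 CPM 31.4% fell. With the replicate block 50 fell and 2 rose, and without 1 library the number that fell ran from 6 to 19. RPS16 and RPS3A stood out. RPS16 was at 899 and 1050.5 CPM with scramble and 255 and 309.95 CPM with shRNA1 (-1.79 ± 0.16, edgeR adjusted p = 1.5e-04), and at 895 and 1062 CPM with shRNA2, close to scramble (hairpin difference 1.79 ± 0.16, edgeR adjusted p = 2.3e-04). RPS3A went from 771 and 469 to 217 and 186 CPM (-1.62 ± 0.23, edgeR adjusted p = 0.0012). The initiation factor EIF3L had the same pattern, at 165 and 146 CPM with scramble and 38.3 and 40.1 CPM with shRNA1 (-1.99 ± 0.12, edgeR adjusted p = 4.3e-05) and 192 and 180.1 CPM with shRNA2 (2.25 ± 0.13, edgeR adjusted p = 6.6e-05).

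With shRNA1 in H929 all 78 ribosomal protein genes fell (median -1.15), where 27.7% of all H929 genes tested fell. RPS16 had -3.52 ± 0.09, limma adjusted p = 3.3e-13 in H929, RPS3A -3.44 ± 0.10, limma adjusted p = 2.2e-12 and EIF3L -3.57 ± 0.08, limma adjusted p = 1.6e-13. The line difference was positive for 74 of the 78 and negative for 0, with RPS16 at 1.73 ± 0.18, limma adjusted p = 3.7e-05 and EIF3L at 1.58 ± 0.13, limma adjusted p = 8.4e-06. Ribosomal protein genes have many processed pseudogenes, and the split of reads between them is uncertain.

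**Figure D4:**
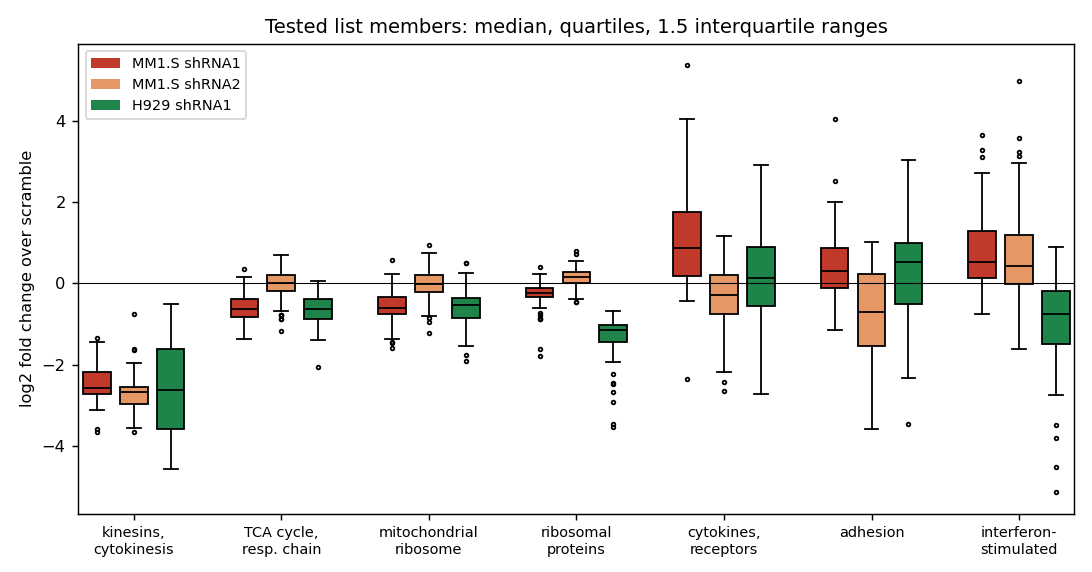
Log2 fold changes over scramble of the tested members of 7 lists: MM1.S shRNA1 (red), MM1.S shRNA2 (orange, same scramble libraries) and H929 shRNA1 (green, own scramble libraries, log2(value + 1) scale). Boxes show medians and quartiles, whiskers reach 1.5 interquartile ranges and points lie beyond. Ribosomal protein medians are -0.24, 0.16 and -1.15, and those of interferon-stimulated genes 0.52, 0.44 and -0.75.

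Proteasome subunits fell in 28 of 41 cases and 1 rose (median -0.55), with 13 and 18 lower without shRNA1 replicate 1 or 2. PSMB4, a core particle subunit, was at 323 and 358 CPM with scramble and 101 and 115 CPM with shRNA1 (-1.66 ± 0.14, edgeR adjusted p = 1.4e-04) and PSMB5, the catalytic subunit that myeloma drugs block, at 33.9 and 36.1 CPM with scramble and 51.1 and 52.1 CPM with shRNA1 (0.56 ± 0.12, edgeR adjusted p = 0.0072). Heat shock proteins and chaperonins fell in 22 of 35 and rose in 3. HSPA8, the constitutive HSP70, went from 2601 and 1884 to 949 and 888 CPM (-1.29 ± 0.16, edgeR adjusted p = 7.5e-04). Folding and stress genes of the endoplasmic reticulum fell in 19 of 42 and rose in 4 (29 lower with the block, 11 and 10 without shRNA1 replicate 1 or 2, and 2 higher without shRNA1 replicate 1). XBP1, the secretory factor of plasma cells, went from 1302 and 1158 to 732 and 710.1 CPM (-0.77 ± 0.11, edgeR adjusted p = 0.0016), and the oxidase ERO1B rose from 7.30 and 6.55 to 66.9 and 50.7 CPM (3.09 ± 0.18, edgeR adjusted p = 3.5e-05).

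Several lists of metabolic genes fell as well. Folate and serine one-carbon enzymes and purine synthesis fell in 21 of 29 cases and 1 rose. Glycolysis and pentose phosphate genes fell in 19 of 35 and rose in 3. LDHA, which makes lactate, went from 1134 and 877 to 272 and 281 CPM (-1.86 ± 0.15, edgeR adjusted p = 1.1e-04), and the lactate exporter SLC16A3 rose from 22.7 and 31.8 to 63.5 and 88.2 CPM (1.48 ± 0.24, edgeR adjusted p = 0.0023).

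Sterol and fatty acid synthesis fell in 22 of 33 cases and rose in 3 (median -0.73, and 14 lower without shRNA1 replicate 1). INSIG1, a sterol-regulated protein of the endoplasmic reticulum, was at 168 and 145 CPM with scramble and 65.2 and 59.1 CPM with shRNA1 (-1.33 ± 0.13, edgeR adjusted p = 2.2e-04). SREBF1, a master factor of lipid synthesis, rose from 55.1 and 80.7 to 98.8 and 129 CPM (0.74 ± 0.23, edgeR adjusted p = 0.037). Without scramble replicate 1 or shRNA1 replicate 2 the edgeR adjusted p of SREBF1 was 0.141 or 0.116. Of 20 genes of the liver X receptor and cholesterol export 6 rose and 2 fell (10 higher with the block). They included ABCA1, ABCG1 and MYLIP, a ubiquitin ligase that sterols induce, from 12.7 and 8.06 to 21.2 and 16.99 CPM (0.88 ± 0.23, edgeR adjusted p = 0.019, and 0.065 or 0.082 without scramble replicate 2 or shRNA1 replicate 1). The receptor gene NR1H3 was at 3.91 and 4.14 CPM with scramble and 2.80 and 2.82 CPM with shRNA1 (-0.52 ± 0.18, edgeR adjusted p = 0.051, and 0.014 with the block). INSIG1 thus fell in the libraries in which ABCA1 and ABCG1 rose.

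Plasma cell factors and surface proteins were divided. IRF4 was at 967 and 1105 CPM with scramble and 336 and 352 CPM with shRNA1 (-1.59 ± 0.12, edgeR adjusted p = 8.8e-05), PRDM1, the factor that fixes plasma cell fate, at 481 and 475 CPM with scramble and 296 and 296 CPM with shRNA1 (-0.69 ± 0.11, edgeR adjusted p = 0.0021) and SLAMF7, an antibody target, at 605 and 539.5 CPM with scramble and 308 and 282 CPM with shRNA1 (-0.96 ± 0.12, edgeR adjusted p = 8.1e-04). GPRC5D, another therapy target, fell from 67.6 and 66.6 to 6.46 and 8.90 CPM (-3.13 ± 0.19, edgeR adjusted p = 3.8e-05). The defining surface marker SDC1 was at 956 and 1129 CPM with scramble and 803 and 1021 CPM with shRNA1 and was not called (-0.19 ± 0.17, edgeR adjusted p = 0.39, and 0.017 with the block). CD38 rose, at 93.8 and 66.8 CPM with scramble and 325 and 263 CPM with shRNA1 (1.87 ± 0.19, edgeR adjusted p = 2.6e-04), while with shRNA2 it was at 36.5 and 35.2 CPM (-3.04 ± 0.20, edgeR adjusted p = 8.7e-05). In all 10 of 33 identity genes rose and 9 fell (16 lower with the block).

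IRF4 rose in H929, where shRNA1 gave 0.30 ± 0.10, limma adjusted p = 0.02 (line difference -1.89 ± 0.16, limma adjusted p = 8.7e-06). Genes of B cells, from which plasma cells derive, rose in 12 of 19 cases and fell in 2 (median 1.00). The summed level of the list hardly moved, at 914 and 1083 CPM with scramble and 922 and 1034 CPM with shRNA1. CR2, the complement receptor CD21, was at 32.6 and 32.4 CPM with scramble and 134 and 123 CPM with shRNA1 (1.98 ± 0.12, edgeR adjusted p = 4.2e-05) and the costimulator CD86 at 21.1 and 16.3 CPM with scramble and 79.7 and 65.6 CPM with shRNA1 (1.96 ± 0.19, edgeR adjusted p = 2.2e-04). MHC class II genes rose in 5 of 16 cases and none fell (10 higher and 1 lower with the block). Of all genes tested in MM1.S 17.8% rose and 19.7% fell, or 28.4% and 30.9% with the block. HLA-DQA1 went from 1.25 and 1.54 to 10.2 and 9.38 CPM (2.81 ± 0.25, edgeR adjusted p = 1.6e-04). CIITA, their master activator, was at 68.6 and 84.6 CPM with scramble and 87.2 and 99.2 CPM with shRNA1 and was not called (0.28 ± 0.19, edgeR adjusted p = 0.269, and 0.0042 with the block). HLA reads depend on how closely the line's alleles match the reference.

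BCL2 family genes rose on both sides of the balance of death and survival, in 10 of 18 cases with 1 lower. Over all genes tested the shares were 17.8% higher and 19.7% lower. Of the killers, HRK was at 1.80 and 2.67 CPM with scramble and 16.3 and 17.6 CPM with shRNA1 (2.92 ± 0.23, edgeR adjusted p = 9.7e-05), BCL2L11 (BIM) at 235 and 203 CPM with scramble and 496 and 469 CPM with shRNA1 (1.14 ± 0.13, edgeR adjusted p = 4.5e-04) and BBC3 (PUMA) at 21.5 and 34.5 CPM with scramble and 68.2 and 91.8 CPM with shRNA1 (1.51 ± 0.26, edgeR adjusted p = 0.003). Of the protectors, MCL1 went from 571 and 518 to 903 and 789 CPM (0.64 ± 0.12, edgeR adjusted p = 0.0055) and BCL2 from 157 and 171 to 245 and 208 CPM (0.47 ± 0.13, edgeR adjusted p = 0.023, and 0.097 or 0.131 without scramble replicate 1 or shRNA1 replicate 1). HRK and BCL2L11 differed between hairpins, at 2.57 and 2.25 CPM and 177 and 197 CPM with shRNA2, whereas BBC3 was at 62.2 and 83.6 CPM (difference -0.13 ± 0.25, edgeR adjusted p = 0.714).

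The partners of ZBP1 in cell death showed no common direction. RIPK3 was at 3.28 and 3.99 CPM with scramble and 5.79 and 6.51 CPM with shRNA1 (0.76 ± 0.19, edgeR adjusted p = 0.018, and 0.071 or 0.072 without scramble replicate 1 or shRNA1 replicate 2) and RIPK1 at 39.7 and 38.5 CPM with scramble and 63.3 and 60.3 CPM with shRNA1 (0.66 ± 0.12, edgeR adjusted p = 0.004). MLKL, the pore-forming executioner, was at 10.1 and 9.45 CPM with scramble and 11.1 and 10.8 CPM with shRNA1 (0.16 ± 0.15, edgeR adjusted p = 0.424), and ADAR, which edits the RNA that ZBP1 binds, at 864 and 829.9 CPM with scramble and 833 and 849.9 CPM with shRNA1 (-0.01 ± 0.11, edgeR adjusted p = 0.953). Of 26 genes of this list 7 rose and 7 fell, ZBP1 included, or 26.9% each way, against 17.8% and 19.7% over all genes. Caspase 6, CASP6, went from 26.1 and 22.4 to 11.7 and 9.81 CPM (-1.17 ± 0.16, edgeR adjusted p = 0.0013) and the gasdermin DFNA5 rose from 5.51 and 5.64 to 24.7 and 21.8 CPM (2.06 ± 0.18, edgeR adjusted p = 1.4e-04).

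ATF4 targets, the genes of amino acid supply, depended on the control library. Their summed level was 3066 and 4777 CPM in the scramble libraries and 2905 and 2998 CPM with shRNA1. With all libraries 3 of 33 rose and 4 fell. Without scramble replicate 2, 15 rose and 4 fell. Without scramble replicate 1, 2 rose and 22 fell. No direction is therefore given for this list. SHMT2, the mitochondrial serine enzyme, fell in each of these fits, and was at 156 and 256 CPM with scramble and 65.9 and 67.7 CPM with shRNA1 (-1.62 ± 0.21, edgeR adjusted p = 9.2e-04).

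**Figure D5:**
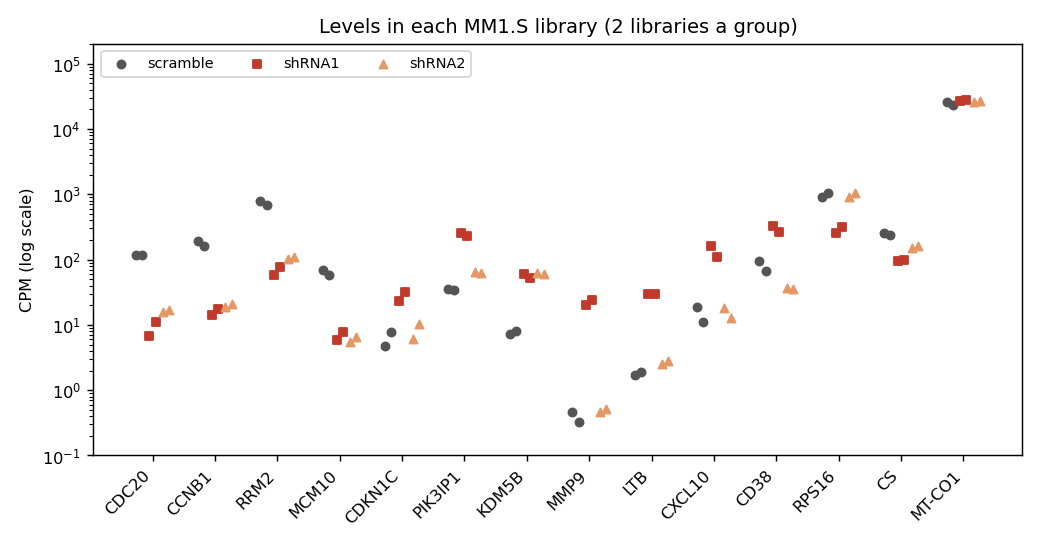
Level in CPM (log scale) of 14 named genes in each MM1.S library: scramble (grey circles), shRNA1 (red squares) and shRNA2 (orange triangles), 2 libraries a group. MMP9, LTB, CXCL10 and CD38 are high with shRNA1 alone, RPS16 is low with shRNA1 alone, and CDC20, CCNB1, RRM2 and MCM10 are low with both hairpins.

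Over the whole table the shRNA2 minus shRNA1 contrast was positive for 2915 genes (16.4%) and negative for 3644 (20.4%). Between the lines, 15761 genes were tested in both. Of these 2777 rose and 3350 fell in MM1.S, and 4057 rose and 4651 fell in H929. The lines shared 1605 rises, 57.8% of the MM1.S list and 39.6% of the H929 list, and 2210 falls, 66.0% and 47.5%. A further 234 rose in MM1.S and fell in H929, and 219 did the reverse. The line difference itself was positive for 2118 of 20370 genes (10.4%) and negative for 2248 (11%). HES6, an inhibitor of the Notch target HES1, was such a gene: it fell in MM1.S, from 139.7 and 158 to 10.9 and 17.8 CPM (-3.38 ± 0.27, edgeR adjusted p = 1.1e-04), and rose in H929 (0.77 ± 0.17, limma adjusted p = 9.8e-04), a difference of -4.18 ± 0.33, limma adjusted p = 7.7e-06.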

How the data were processed

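Poly(A)-selected RNA was read in 6 MM1.S and 8 H929 libraries. Per the submitters' processing notes, STAR 2.5.3a, DESeq2 1.24.0 and GRCh38 (hg38) were used; the counting tool, annotation release and strand setting are not given in the sources used here. Of 167 genes named with values, 100 overlap another GENCODE 29 gene, 82 in antisense.

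In MM1.S the deposited values are raw counts of reads, per the file headers; 18 repeated identifiers were left out. The deposited H929 table holds a normalized signal, that is, counts scaled by the authors with a size factor for each library. The authors' deposited results table gives a log2 fold change and an adjusted p-value per gene. One H929 scramble column and the shRNA2 columns were matched to samples by elimination.

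Counts of MM1.S were fitted with edgeR 4.0.16 (quasi-likelihood F test, TMM, filterByExpr with minimum count 10) over all 6 MM1.S libraries, and with DESeq2 1.42.0 as an alternative. H929 effects and line differences used limma 3.58.1 on log2(value + 1). Same-numbered MM1.S libraries deviated together (correlations 0.567 to 0.807 over 10822 genes). Only the fit with the replicate block treats them as pairs. Fold changes, standard errors and calls given without mention of the block come from a fit that leaves pairing out. The members and the 73 gene lists were chosen with earlier results of these data known, and lists are described by counts and medians without a set test. Named genes are ZBP1, the 12 highest and 12 lowest fold changes with at least 5 CPM, the 6 largest rises and falls in CPM, up to 5 genes each way with at most 3 reads in 1 group, up to 4 per list (2 against its direction) and members whose role needed it; some of these are not reported here. Promoters came from RefSeq (GRCh38.p14). Gene tests were checked on simulated data.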

Additional observations from a re-analysis of the deposited data

Results flagged for a closer look

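The effect of shRNA1 differed between MM1.S and H929, by the limma contrast of the 2 effects, in 2118 genes that were more positive in MM1.S and 2248 that were more negative.

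Among named genes, ZBP1 had a line difference of -1.25 ± 0.17, limma adjusted p = 2.6e-04, its fall being larger in MM1.S. KDM5B had 2.87 ± 0.14, limma adjusted p = 3.6e-07, with a rise in MM1.S and no call in H929. The interferon-stimulated genes XAF1 (5.40 ± 0.41, limma adjusted p = 6.1e-06), MX1 (4.01 ± 0.26, limma adjusted p = 2.0e-06) and MX2 (4.80 ± 0.40, limma adjusted p = 9.4e-06) rose in MM1.S and fell in H929. The H929 fall is against the scramble libraries of shRNA1, in which the interferon-stimulated list summed higher than in those of shRNA2. RPS16 (1.73 ± 0.18, limma adjusted p = 3.7e-05) and EIF3L (1.58 ± 0.13, limma adjusted p = 8.4e-06) fell in both lines, less in MM1.S. IRF4 had -1.89 ± 0.16, limma adjusted p = 8.7e-06, with a fall in MM1.S. HES6 had -4.18 ± 0.33, limma adjusted p = 7.7e-06, with a fall in MM1.S and a rise in H929.

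The distance of a library from its group was not tested, because a group has 2 libraries.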

How the results depend on the processing

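With the replicate block 5068 genes were higher and 5513 lower, 58 of the 73 lists had at least 50% of their tested members called in 1 direction (35 without it), and 10380 genes differed between the hairpins (6559 without it). Leaving out 1 library in turn gave 2244 to 2691 higher genes and 2092 to 3307 lower genes, and 1437 to 1635 and 1178 to 1829 by 2-fold or more. The list count ran from 22 without shRNA1 replicate 1 and 23 without shRNA1 replicate 2 to 32. ZBP1 ran from -2.64 to -2.40 and kept its call. Where a library is left out, the lone sample is assumed to vary like the other groups. Median-of-ratios scaling, the DESeq2 test, no filter and only the 4 libraries in the fit left these counts within 1.5-fold. The line difference called 4366 genes, 5297 with a pseudocount of 8 and 4181 with edgeR on the recovered reads, an alternative chosen after seeing the data. Of 166 other genes named with values, which leave out the 5 processed pseudogenes that lost their call without scramble replicate 2, 147 passed the threshold; no call changed sign. A call was lost for 5 genes without scramble replicate 1, 2 without scramble replicate 2, 4 without shRNA1 replicate 1 and 4 without shRNA1 replicate 2, and none was lost with the block, which added 10. Genes that were not called changed sign as follows. ADAR was at 0.00061 with median-of-ratios scaling or DESeq2 and ran from -0.045 to 0.045 with a library left out. TSC22D3 was at 0.0053 with median-of-ratios scaling, 0.0055 with DESeq2 or the replicate block, 0.0016 with no filter, and -0.26 to 0.29 with a library left out. With a library left out CD14 ran from -0.020 to 1.84, RB1 from -0.27 to 0.092 and SDC1 from -0.33 to 0.011; for all of these the cause was not tested. With 2 libraries a group the data allow no check of a single library beyond leaving it out.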

Other observations

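Clustered histone genes, read here only where their transcripts carry a poly(A) tail, rose in 8 of 26 cases and fell in 4 (11 higher with the replicate block, 5 higher without scramble replicate 2 or shRNA1 replicate 1, and 2, 1 and 2 lower without scramble replicate 2, shRNA1 replicate 1 or shRNA1 replicate 2). HIST1H2AC was at 4.69 and 3.15 CPM with scramble and 11.98 and 10.7 CPM with shRNA1 (1.54 ± 0.22, edgeR adjusted p = 0.0014). SR proteins, hnRNPs and the kinases of SR proteins fell in 25 of 45 cases and rose in 2. The 2 that rose were such kinases: CLK1 was at 96.99 and 75.03 CPM with scramble and 235 and 165 CPM with shRNA1 (1.22 ± 0.22, edgeR adjusted p = 0.0036) and CLK4 at 33.7 and 24.5 CPM with scramble and 69.6 and 51.6 CPM with shRNA1 (1.06 ± 0.23, edgeR adjusted p = 0.0095). SRSF3 went from 397 and 339 to 174 and 162 CPM (-1.13 ± 0.13, edgeR adjusted p = 4.5e-04).

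Feedback genes of MAPK signalling rose in 13 of 36 cases and fell in 5 (8 lower with the block, 3 without scramble replicate 2 and 2 without shRNA1 replicate 1), with the RAS inhibitor SPRED1 at 46.3 and 42.3 CPM with scramble and 197 and 175 CPM with shRNA1 (2.07 ± 0.13, edgeR adjusted p = 4.4e-05). Genes of Notch, Wnt and TGF-beta signalling rose in 25 of 66 and fell in 10 (16 lower with the block and 4 without shRNA1 replicate 1). Among all genes 17.8% rose and 19.7% fell, or 28.4% and 30.9% with the block. The receptors TGFBR1 (1.66 ± 0.15, edgeR adjusted p = 1.7e-04) and BMPR2 (2.07 ± 0.22, edgeR adjusted p = 3.6e-04) rose, and TGFBR3, a coreceptor, rose from 4.34 and 3.92 to 15.8 and 13.97 CPM but was at 0.631 and 0.441 CPM with shRNA2 (-4.79 ± 0.24, edgeR adjusted p = 5.4e-05). CAMK4, a calcium-dependent kinase of lymphocytes, was at 3.67 and 2.82 CPM with scramble and 26.7 and 21.1 CPM with shRNA1 (2.88 ± 0.28, edgeR adjusted p = 2.2e-04) and at 3.20 and 1.85 CPM with shRNA2. In the cortical cytoskeleton 23 of 64 genes fell and 12 rose (14 lower and 7 higher without shRNA1 replicate 1, and 19 higher with the block): VIM, vimentin, went from 69.3 and 78.7 to 25.3 and 26.7 CPM (-1.51 ± 0.13, edgeR adjusted p = 1.5e-04), while MYO1F, a myosin of leukocytes, rose from 2.27 and 2.56 to 15.7 and 18.3 CPM (2.81 ± 0.20, edgeR adjusted p = 7.0e-05).

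Targets of p53 rose in 11 of 36 cases and fell in 4 (19 and 7 with the block, and 2 lower without shRNA1 replicate 1). Hypoxia response genes rose in 8 of 25 and fell in 1 (14 higher with the block). Among all genes tested 17.8% rose and 19.7% fell, or 28.4% and 30.9% with the block. Protein-coding genes with long transcripts were called more often in the higher direction: 27.1% of the longest quintile by exon length rose and 16.5% fell, against 13.95% and 28.4% of the shortest quintile.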
